A study of Mus musculus with 6 samples.

Results

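Fertilin is a heterodimer on the sperm surface, built from ADAM proteins that reach it only after folding in the endoplasmic reticulum with chaperones made in the testis. The genes described here are 10 by name: the fertilin genes Adam1a, Adam1b and Adam2, the related sperm-surface genes Adam3, Adam5, Adam18 and Adam32, and the chaperone genes Clgn, Calr3 and Pdilt. They were chosen by symbol, and all 10 were found among the 53700 gene identifiers of the count tables. All 10 also had enough reads to be tested. Total RNA of whole testes was sequenced as single-end reads of 75 bp from 3 mice with the Msl3 wild-type genotype (WT) and 3 mice labelled as conditional knockouts of a floxed Msl3 (cKO), all at postnatal day 45. Both groups carry the strain label Msl3em1Forni/C57BL/6J. The recombinase line, and so the cells in which the floxed allele was to be removed, is not given in the sources used here. The label of each library calls it a biological replicate.

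ADAM proteins are membrane-anchored proteins with a metalloprotease-like and a disintegrin-like domain. In the male germ line several of them serve adhesion and sperm transport. ADAM1A pairs with ADAM2 in the endoplasmic reticulum of spermatogenic cells, ADAM1B pairs with ADAM2 on the sperm surface, and ADAM3 is needed for sperm to pass into the oviduct and bind the egg coat. Calmegin (Clgn), calsperin (Calr3) and the disulfide isomerase-like protein Pdilt are testis relatives of calnexin, calreticulin and protein disulfide isomerase, and mice that lack any of them lose ADAM3 from sperm. The comparison asks whether the testes labelled cKO differ from WT in the transcripts of these proteins.

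The libraries held 56991431 to 73766444 reads assigned to genes, and the 10 genes took 0.546% to 0.587% of them. Msl3, the targeted gene, measured 16.9 ± 1.68 CPM (SD, n = 3) in WT and 15.6 ± 0.649 CPM (SD, n = 3) in the libraries labelled cKO. CPM are read counts scaled to a common library size by TMM, the trimmed mean of M values. The groups overlapped (log2 difference -0.12, SE 0.088, edgeR adjusted p 0.551), so the Msl3 count does not separate the groups. Every value below compares the libraries by their labels. Whole testis holds every stage of the germ line together with somatic cells, and in bulk RNA fewer cells of a type and less RNA per cell cannot be told apart. Markers of the epididymis, the duct next to the testis, summed to between 0.429 and 0.856 CPM. Lcn8 was at 0 reads in all 6 libraries, and the epididymal Adam7 did not exceed 0.0342 CPM.

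The sequence of Adam1a and Adam1b limits what their counts can hold, so it is shown first. Both lie on chromosome 5, minus strand, in the build mm10 that the submitters' processing notes name: Adam1b (ENSMUSG00000062438) from 121500098 to 121503435 and Adam1a (ENSMUSG00000072647) from 121518576 to 121545482. A transcript of 1 exon was compared for each, 3338 bp for Adam1b and 3496 bp for Adam1a, and the 2 coding sequences share an identical run of 1082 bp. The 120 bases below straddle the end of that run in GENCODE M21 transcripts, and capitals mark the 2 positions at which they differ.
Adam1a: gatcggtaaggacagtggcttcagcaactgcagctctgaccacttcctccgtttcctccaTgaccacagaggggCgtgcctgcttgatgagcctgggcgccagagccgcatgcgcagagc
Adam1b: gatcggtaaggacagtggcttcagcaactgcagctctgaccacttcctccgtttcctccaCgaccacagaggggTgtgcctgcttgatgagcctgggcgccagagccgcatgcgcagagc
A read of 75 bases that falls inside the run matches both genes. Of the stretches of 75 bases in Adam1b, 31.1% also occurred in Adam1a, all 1016 of them inside the Adam1b coding sequence. Of those in Adam1a, 77.0% occurred in other genes, 62.3% in Gm42878, a gene model on the same strand that shares 4779 bp of its exons. The layout of the tables counts only reads with 1 place in the genome and 1 gene, so the counts of Adam1a and Adam1b come from the remaining parts of each gene. Adam3, Adam5, Adam18, Adam32, Clgn and Calr3 shared 0 such stretches with another gene, Adam2 shared 0.802% and Pdilt 4.61%.

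The other members lie elsewhere. Adam18 (ENSMUSG00000031552), Adam3 (ENSMUSG00000031553), Adam5 (ENSMUSG00000031554) and Adam32 (ENSMUSG00000037437) follow each other on the minus strand of chromosome 8, from 24602246, where Adam18 begins, to 24948804, where Adam32 ends. Calr3 (ENSMUSG00000019732, from 72424176 to 72443870) and Clgn (ENSMUSG00000002190, from 83389867 to 83428552) are on chromosome 8 as well. Adam2 (ENSMUSG00000022039) is on chromosome 14 from 66027329 to 66077733, and Pdilt (ENSMUSG00000030968) on chromosome 7 from 119486587 to 119523489. Reads on the strand of the gene, opposite to the counted one, made up at most 1.01% of the reads of any of the 10 genes in a library.

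Levels are compared between genes per length, as CPM per kilobase of union exons. Adam5 had the highest level, 444 ± 15.7 (SD, n = 6), and Adam3 followed at 436 ± 14.7 (SD, n = 6). Their ranges over the 6 libraries overlapped. Both are sperm-surface proteins of the ADAM family whose genes are neighbours on chromosome 8. Adam2, the common partner in both fertilin dimers, came next at 255 ± 20.6 (SD, n = 6). Clgn, the membrane-bound chaperone that folds fertilin, had 219 ± 17.7 (SD, n = 6), and Adam32 had 219 ± 10.1 (SD, n = 6). Adam2, Clgn and Adam32 overlapped as neighbours in that order. The order depended on the length used: per kilobase of the longest transcript, Adam32 had 267 and came before Clgn at 226, with Adam2 at 269.

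The luminal chaperones were lower than the membrane-bound one on this per-kilobase scale. Pdilt, which lacks the usual active-site cysteine pairs of its family, had 84.9 ± 1.81 (SD, n = 6), and Calr3, the soluble relative of calreticulin, had 68.7 ± 5.80 (SD, n = 6). Adam18 stood at 60.3 ± 3.22 (SD, n = 6), with a range that overlapped that of Calr3. The fertilin alpha genes had the 2 lowest levels, 41.2 ± 4.11 (SD, n = 6) for Adam1b and 11.7 ± 0.146 (SD, n = 6) for Adam1a. The median over 21853 tested genes with a known length was 2.41, and between 78.0% (Adam1a) and 99.7% (Adam3 and Adam5) of them had a lower level than a member.

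The level of Adam1a, but not its place in the order, depended on which bases are counted as its length. Per kilobase of exon not shared with another gene on the same strand, its level was 32.3 ± 0.404 (SD, n = 6). With length counted as the number of stretches of 75 bases found in no other gene, on the same per-kilobase scale, Adam1a had 51.6 ± 0.644 (SD, n = 6) and Adam1b 61.1 ± 6.10 (SD, n = 6). Adam1a stayed last under each of these lengths. On the last scale Adam1b came before Adam18, which had 58.5 ± 3.13 (SD, n = 6), but the ranges of Adam1b and Adam18 overlapped. Both scales were added once values were known.

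**Figure D1:**
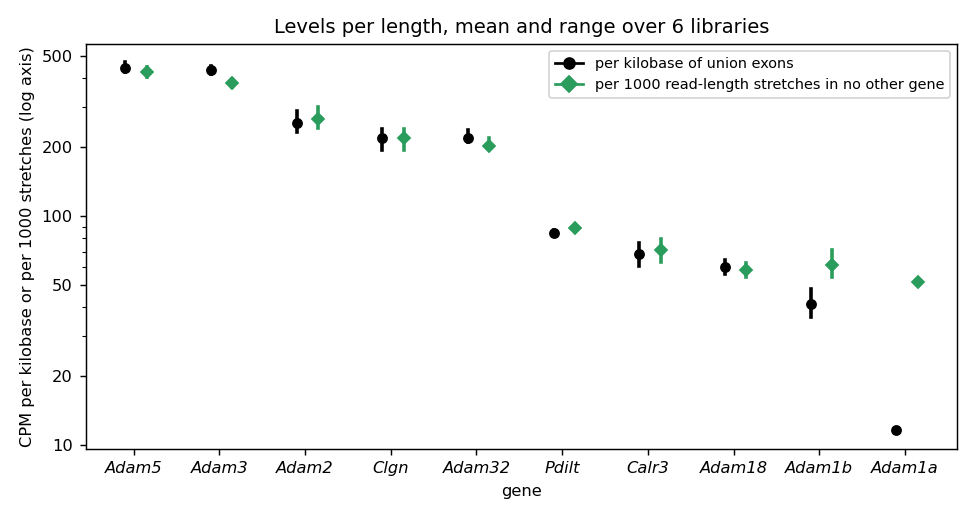
Levels of the 10 genes, as CPM per kilobase of union exons (black circles) and with length counted in stretches of 75 bases found in no other gene (green diamonds), on a log axis; points are means and lines the range over 6 libraries. Adam5 and Adam3 are highest, and the 2 scales differ most for Adam1a, at 11.7 and 51.6.

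None of the 10 genes passed the test between the groups. Over all genes, 4 of 21902 passed an edgeR adjusted p of 0.05 (0.0183%, with 0.00913% higher and 0.00913% lower in cKO), and 0 of the 10 members did, with edgeR adjusted p from 0.306 to 0.996. At an unadjusted p under 0.05 there were 3 of the 10, against 13.9% of all tested genes. Of these 3, Adam1b and Clgn were higher in cKO (7.33% of all tested genes) and Adam2 was lower (6.54%). DESeq2 called 0 of the 10 as well, and 1.64% of the 12135 genes to which it gave an adjusted p. Calls over all genes depended on 1 library of either group: 2.82% were called without cKO replicate 1 and 0.518% without WT replicate 1, with 0 members in each case. The fitted fold changes divided evenly, 5 positive and 5 negative, with a median of 0.02 on the log2 scale against 0.00 over all tested genes. Pdilt, at -0.00, counted as negative. The even split depended on single libraries: 3 were negative without WT replicate 2 or without cKO replicate 3, and 6 without cKO replicate 2. The largest fold change, for Adam1b, was 0.21. The 95% limits of all 10 lay within 80.1% and 129% of the WT level.

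Groups did not overlap for 5 of the 10 genes, against 18.9% of all tested genes. In 3 of them cKO was higher (10% of all tested genes) and in 2 it was lower (8.85%). With library totals alone as the scale, Adam1a overlapped and 4 genes remained without overlap: Adam1b, Adam2, Adam5 and Clgn.

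**Figure D2:**
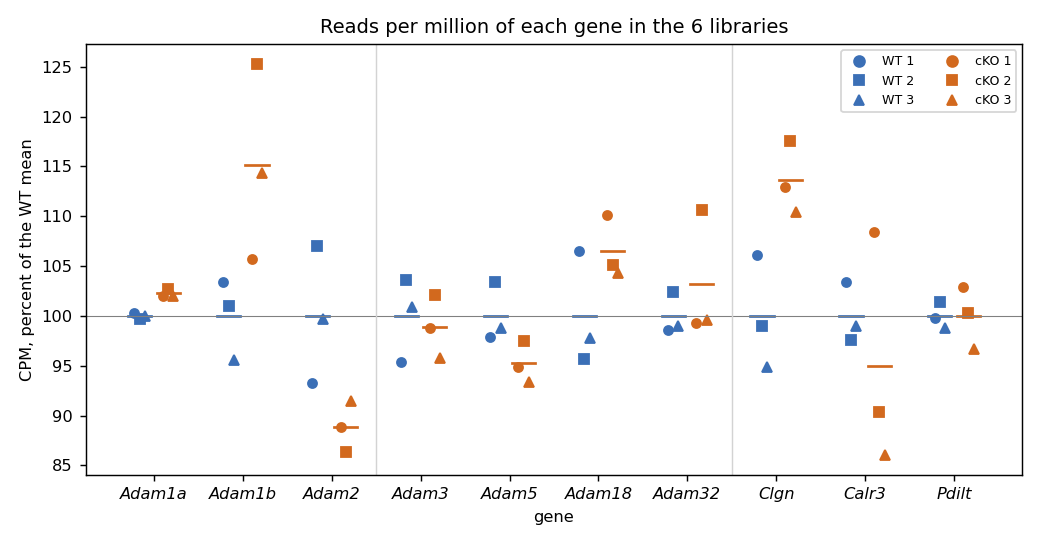
CPM of each gene in each of the 6 libraries, as a percentage of the WT mean of that gene; marker shapes are replicate numbers, blue is WT, orange is cKO, and short lines are group means. Adam1a, Adam1b and Clgn lie higher in all cKO libraries and Adam2 and Adam5 lower, while Adam3, Adam18, Adam32, Calr3 and Pdilt overlap. The log2 fold changes of Adam1a and Adam5 are only 0.03 and -0.07.

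The 3 fertilin genes had different patterns. Adam2, which encodes fertilin beta, measured 678, 778 and 725 CPM in the WT libraries and 646, 628 and 665 CPM in those labelled cKO. All WT libraries were above all cKO libraries, but WT replicate 1 was only slightly above cKO replicate 3. The log2 fold change of Adam2 was -0.17 (SE 0.069), with 95% limits of -0.32 and -0.02 and an edgeR adjusted p of 0.324 (0.0321 unadjusted). The cKO mean was 89.0% of the WT mean.

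Adam1b, the fertilin alpha subunit of the sperm surface, lay the other way. It measured 132, 129 and 122 CPM in WT and 135, 160 and 146 CPM in cKO. The lowest cKO library, replicate 1, was close to the highest WT library. The log2 fold change of Adam1b was 0.21 (SE 0.076), with 95% limits of 0.04 and 0.37 and an edgeR adjusted p of 0.306 (0.0189 unadjusted).

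Adam1a, whose protein pairs with ADAM2 inside the cell and is needed for ADAM3 to reach the sperm surface, varied least. It measured 87.4, 86.9 and 87.1 CPM in WT and 88.9, 89.5 and 88.9 CPM in cKO. Its coefficient of variation within groups was 0.329%, below the 1.35% that counting error alone would give for its 5007 to 6489 reads. The other 9 genes varied within groups by 2.38% (Pdilt) to 8.83% (Calr3). The groups did not overlap for Adam1a, yet the log2 fold change was 0.03 (SE 0.060; edgeR adjusted p 0.855). The limits for Adam1a were 93.3% and 112% of the WT level.

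The 4 neighbouring genes on chromosome 8 had log2 fold changes from -0.07 (Adam5) to 0.09 (Adam18). Adam3 measured 1231, 1337 and 1302 CPM in WT and 1275, 1317 and 1236 CPM in cKO, and the groups were interleaved. Its log2 fold change was -0.02 (SE 0.064), with limits of 89.8% and 109% of the WT level and an edgeR adjusted p of 0.938.

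Adam5 measured 1392, 1471 and 1405 CPM in WT and 1350, 1387 and 1329 CPM in cKO, so the 3 cKO libraries were the lowest, by a narrow margin. For Adam5 the log2 fold change was -0.07 (SE 0.062; edgeR adjusted p 0.642). Adam18 measured 147, 132 and 135 CPM in WT and 152, 145 and 144 CPM in cKO, where WT replicate 1 lay among the cKO libraries. Its log2 fold change was 0.09 (SE 0.068; edgeR adjusted p 0.573). Adam32 measured 635, 660 and 638 CPM in WT and 640, 713 and 642 CPM in cKO, with cKO replicate 2 above the other 5 libraries. Its log2 fold change was 0.05 (SE 0.067; edgeR adjusted p 0.809), and it was -0.01 without that library. Adam9, a widely expressed family member and the next protein-coding gene after Adam32, had a log2 fold change of 0.17 (edgeR adjusted p 0.325).

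Among the chaperones, the groups were without overlap for Clgn and overlapped for the other two. Clgn measured 875, 816 and 782 CPM in WT and 931, 969 and 910 CPM in cKO, and every cKO library exceeded every WT library. The log2 fold change of Clgn was 0.18 (SE 0.067), with limits of 0.04 and 0.33 and an edgeR adjusted p of 0.306 (0.0175 unadjusted). Calr3 measured 143, 135 and 137 CPM in WT and 150, 125 and 119 CPM in cKO. For Calr3, cKO replicate 1 was the highest library of all and cKO replicates 2 and 3 were the lowest. Its log2 fold change was -0.08 (SE 0.085; edgeR adjusted p 0.721), and it ran from -0.18 without cKO replicate 1 to -0.01 without cKO replicate 3. Pdilt measured 193, 196 and 191 CPM in WT and 199, 194 and 187 CPM in cKO, and its group means were both 194 CPM. The limits for Pdilt were 91.0% and 110% of the WT level (edgeR adjusted p 0.996).

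**Figure D3:**
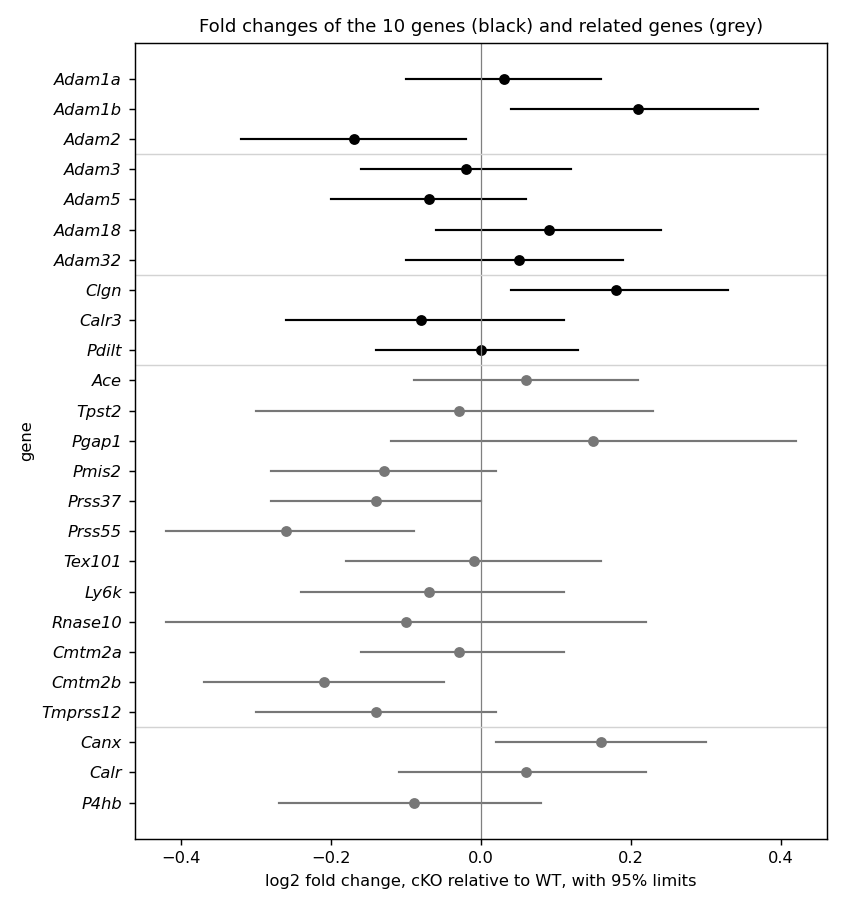
Log2 fold changes of cKO relative to WT with 95% limits from the edgeR fit, for the 10 genes (black) and, in grey, 12 genes of ADAM3 maturation and localisation and 3 general chaperones. The limits of Adam1b and Clgn lie above 0 and those of Adam2 below 0, each with an adjusted p over 0.3 in the fit of all genes.

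Ratios of 2 transcripts within a library need no scaling between libraries, and 7 of them were compared between the groups. The test was an exact permutation over the 6 libraries, two-sided, which cannot give a p below 0.1. Reads of Adam2 per read of Adam1b numbered 5.12, 6.04 and 5.96 in WT and 4.78, 3.93 and 4.55 in cKO. The beta to alpha ratio was thus lower in all 3 cKO libraries, by -0.37 (SE 0.115) on the log2 scale, with an exact p of 0.1 and a Benjamini-Hochberg adjusted p of 0.14 over the 7 ratios. Against Adam1a the difference was -0.20 (SE 0.0653), also without overlap (exact p 0.1, adjusted p 0.14). The stretches shared by Adam1a and Adam1b are missing from both counts in every library, so these ratios are not ratios of transcript molecules.

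Clgn to Adam2, a chaperone against its client, was 1.29, 1.05 and 1.08 in WT and 1.44, 1.54 and 1.37 in cKO. That ratio was higher in all cKO libraries, by 0.35 (SE 0.106) on the log2 scale (exact p 0.1, adjusted p 0.14). Adam3 to Adam2 differed by 0.15 (SE 0.0557) and Calr3 to Calr by -0.14 (SE 0.0615), both without overlap (exact p 0.1, adjusted p 0.14). Several of these ratios share Adam2 and are not independent of each other. The ratios use the same counts as the fold changes above. Adam2 was without overlap in one direction and Adam1a, Adam1b and Clgn in the other. The lack of overlap of their ratios follows from that and is no further evidence. The share of other gene pairs without overlap was not computed. Clgn to its widely expressed relative Canx, which encodes calnexin, was 2.67, 2.69 and 2.58 in WT and 2.65, 2.83 and 2.58 in cKO. The Clgn to Canx difference was 0.02 (SE 0.0438; exact p 0.8), and the 2 groups overlapped. Pdilt to P4hb, a protein disulfide isomerase, differed by 0.10 (SE 0.0964; exact p 0.5).

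**Figure D4:**
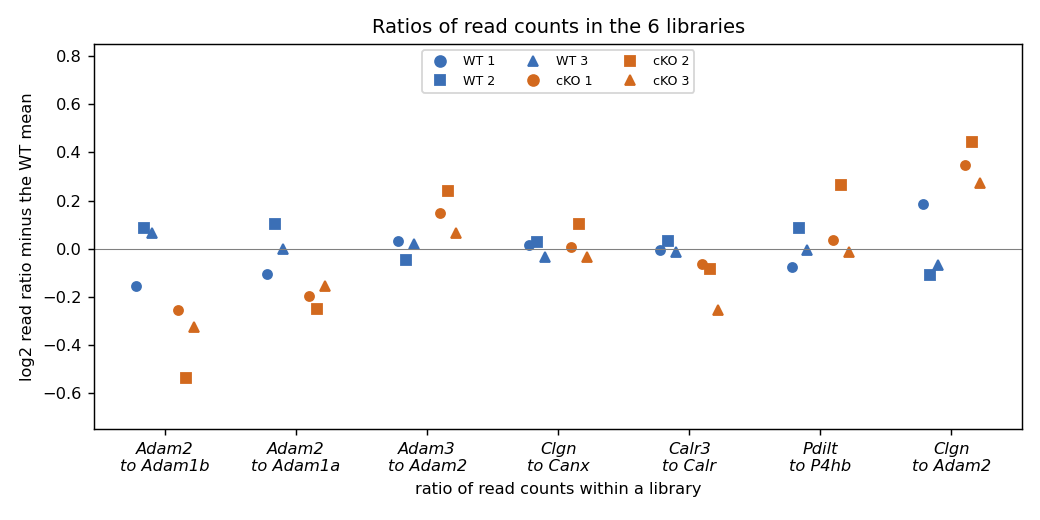
Log2 ratios of read counts within each library, less the WT mean of that ratio; marker shapes are replicate numbers, blue is WT and orange is cKO. The 3 cKO libraries lie below the 3 WT libraries for Adam2 to Adam1b and above them for Clgn to Adam2, while Clgn to Canx overlaps.

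Calnexin itself measured 328, 303 and 304 CPM in WT and 352, 343 and 353 CPM in cKO. For Canx the log2 fold change was 0.16 (SE 0.064; edgeR adjusted p 0.313). Of 12 general chaperones of the endoplasmic reticulum, 0 were called, 10 had a positive and 2 a negative fold change (49.3% of all tested genes had a negative one), and their median was 0.08. That median ran from 0.03 without cKO replicate 1 to 0.13 without WT replicate 1. Groups did not overlap for 4 of the 12, each with cKO higher, against 10% of all tested genes. Uggt1, the glucosyltransferase that senses unfolded glycoproteins for the calnexin cycle, had the lowest unadjusted p of the list, with a log2 fold change of 0.21 (SE 0.075; edgeR adjusted p 0.305). Calr and P4hb had 0.06 and -0.09, with overlapping groups.

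Other proteins are known to act on ADAM3 after it is made, and 12 of their genes were examined. None was called, with 10 negative and 2 positive fold changes (49.3% of all tested genes had a negative one) and a median of -0.08. Groups did not overlap for 4 of the 12, each with cKO lower, against 8.85% of all tested genes. Prss55, a serine protease anchored to the sperm membrane, measured 141, 150 and 148 CPM in WT and 134, 112 and 121 CPM in cKO. Its groups did not overlap, and the log2 fold change was -0.26 (SE 0.075; edgeR adjusted p 0.288, unadjusted 0.00538). Without cKO replicate 1, Prss55 was called, at -0.33 with an edgeR adjusted p of 0.0302. Cmtm2b, which encodes a membrane protein of the chemokine-like family, measured 398, 466 and 425 CPM in WT and 378, 356 and 379 CPM in cKO. The log2 fold change of Cmtm2b was -0.21, with SE 0.073 and an edgeR adjusted p of 0.302, and its groups did not overlap. Its neighbour in the family, Cmtm2a, had -0.03 with overlapping groups.

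Groups were also without overlap for Prss37, a protease-like protein, at -0.14, and for Tmprss12, a transmembrane serine protease, at -0.14, with edgeR adjusted p of 0.362 and 0.412. Pmis2 had -0.13 and Ly6k, a GPI-anchored protein, -0.07. Tex101, a GPI-anchored protein cut from the sperm surface by ACE, had -0.01, and Ace had 0.06. The tyrosylprotein sulfotransferase gene Tpst2 had -0.03, the GPI-remodelling gene Pgap1 had 0.15 and Rnase10, chiefly a gene of the epididymis, had -0.10 at 3.60 to 5.41 CPM. The groups overlapped for each of these 7 genes. Without cKO replicate 2, the count of negative fold changes among the 12 was 7, and without WT replicate 1 it was 8.

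The remaining family was examined to see how the members stand within it. Of 13 other ADAM genes made in the testis, 0 were called, 11 had a negative and 2 a positive fold change, and the median was -0.15. The median was -0.08 without WT replicate 2 and -0.09 without cKO replicate 3. Groups did not overlap for 4 of the 13, each with cKO lower, against 8.85% of all tested genes. Adam34 had the lowest unadjusted p of these, at 24.1, 24.3 and 24.1 CPM in WT and 20.6, 22.2 and 19.7 CPM in cKO, a log2 fold change of -0.22 (SE 0.074; edgeR adjusted p 0.298). Of 12 ADAM genes listed as widely expressed 11 were tested, and 0 were called. Of the 11, 9 had a positive and 2 a negative fold change, with a median of 0.10. Without overlap were 2 of them, each with cKO higher, against 10% of all tested genes. Over all tested genes 49.3% of fold changes were negative. The difference between lists was not tested.

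**Figure D5:**
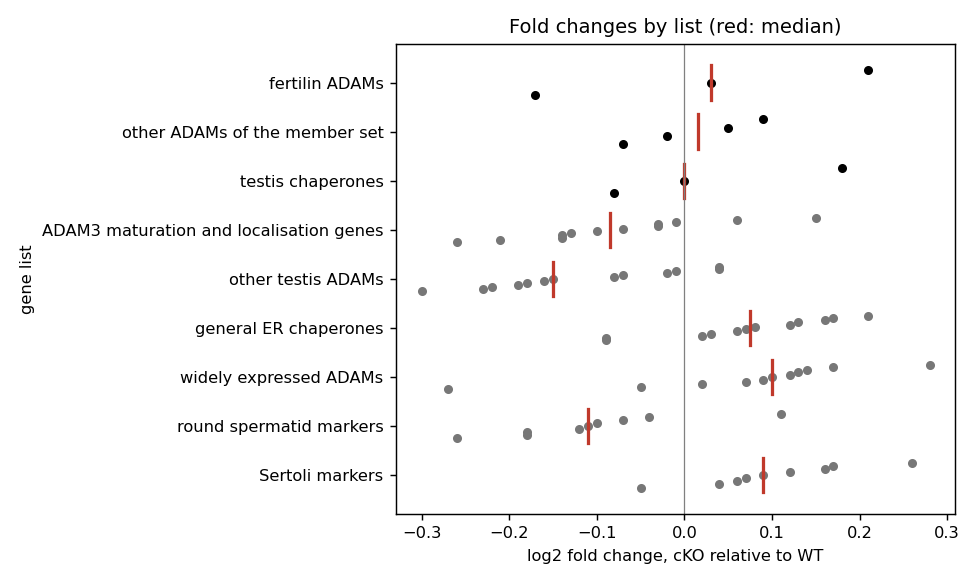
Log2 fold changes of cKO relative to WT of single genes (points) in 9 lists, with the median of each list in red; the 3 lists in black hold the 10 genes. Other testis ADAMs lie mostly below 0, with a median of -0.15, and general chaperones mostly above it, with a median of 0.08.

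Markers of the cell types of the testis are given beside these values, and their part in them was not tested. Round spermatid markers summed to 1459 to 1594 CPM in WT and 1396 to 1439 CPM in cKO without overlap. Of these 9 markers 0 were called and 8 had a negative fold change (49.3% of all tested genes had one). Groups did not overlap for 3 of the 9, each with cKO lower, against 8.85% of all tested genes. Izumo1, which encodes the egg-binding sperm protein, had the lowest unadjusted p with -0.26 (edgeR adjusted p 0.276), while Acr had 0.11. The 8 markers of pachytene and diplotene spermatocytes had a median of -0.08, with sums of 6696 to 6844 CPM in WT and 6388 to 6953 CPM in cKO. Tbpl1 had the lowest unadjusted p of that list, at -0.10 (edgeR adjusted p 0.499), while Pou5f2 had -0.15 and Piwil1 0.12. The 9 markers of elongating spermatids had a median of -0.03, with sums of 18991 to 21003 CPM and 16862 to 20444 CPM, and 5 of the 9 fold changes were negative. Their median ran from -0.12 without WT replicate 2 to 0.03 without WT replicate 1 or cKO replicate 2. Hmgb4 had the lowest unadjusted p, at -0.25, and Tnp1 had the lowest fold change, at -0.40 (edgeR adjusted p 0.276 for each), while Smcp and Gapdhs had 0.10 each. Hmgb4 alone of these 9 was without overlap, with cKO lower (8.85% of all tested genes), and the groups overlapped for Tnp1.

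Sertoli markers, from the somatic cells that nurse the germ line, had 8 of 9 fold changes positive and a median of 0.09. Their sums were 1405 to 1694 CPM in WT and 1427 to 1857 CPM in cKO, which overlap, and Sox9 had 0.26 (edgeR adjusted p 0.288). Of the 9 markers, 2 were without overlap, Sox9 among them, each with cKO higher (10% of all tested genes). Spermatogonial markers had a median of 0.10, with sums of 125 to 147 CPM and 127 to 146 CPM, and Zbtb16 had 0.24 (edgeR adjusted p 0.362). Of the 7 Leydig markers 5 had a negative and 2 a positive fold change, with a median of -0.14 that was 0.02 without cKO replicate 2. They ranged from -0.38 for Hsd17b3 (edgeR adjusted p 0.276) to 0.30 for Star. Hsd17b3 alone of the 7 was without overlap, with cKO lower (8.85% of all tested genes). Of the 7 macrophage markers 6 had a negative and 1 a positive fold change, with a median of -0.24 that ran from -0.32 without WT replicate 1 to -0.13 without WT replicate 2. Fcgr3 had -0.34 (edgeR adjusted p 0.276), and Mrc1, the marker of that list with the highest CPM, had 0.25 (edgeR adjusted p 0.288). Both were without overlap, Fcgr3 with cKO lower (8.85% of all tested genes) and Mrc1 with cKO higher (10%). Star, Mrc1, Tnp1, Smcp, Gapdhs, Pou5f2, Piwil1 and Acr were named after their values were seen. The sums of both lists overlapped between the groups (787 to 944 CPM against 732 to 948 CPM, and 109 to 125 CPM against 111 to 123 CPM). Of the epididymal markers 1 of 9, Defb41, had enough reads to be tested, with -0.02.

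Promoter sequences from RefSeq (GRCm38.p6) matched 4 of the 10 genes: Adam1a, Adam1b, Calr3 and Pdilt. The bases upstream of the start sites of both RefSeq and GENCODE are shown for Adam1b, whose cKO libraries were all higher, and for the chaperones Calr3 and Pdilt, whose groups overlapped. The Adam1a window lies inside its annotated transcript and is not shown. Capitals mark the Myb core AACNG on either strand, a core bound by the meiotic activator A-MYB among other factors.
Adam1b, chr5:121503436-121503685, minus strand: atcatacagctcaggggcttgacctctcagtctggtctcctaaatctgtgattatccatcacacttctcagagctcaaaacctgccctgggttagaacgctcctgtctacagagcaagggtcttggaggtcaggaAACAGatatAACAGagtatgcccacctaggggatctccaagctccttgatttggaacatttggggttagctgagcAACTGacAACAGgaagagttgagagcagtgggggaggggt
Calr3, chr8:72443871-72444028, minus strand: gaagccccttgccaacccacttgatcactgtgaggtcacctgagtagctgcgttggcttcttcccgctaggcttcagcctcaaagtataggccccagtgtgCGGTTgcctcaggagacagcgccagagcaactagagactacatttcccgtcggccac
Pdilt, chr7:119523490-119523732, minus strand: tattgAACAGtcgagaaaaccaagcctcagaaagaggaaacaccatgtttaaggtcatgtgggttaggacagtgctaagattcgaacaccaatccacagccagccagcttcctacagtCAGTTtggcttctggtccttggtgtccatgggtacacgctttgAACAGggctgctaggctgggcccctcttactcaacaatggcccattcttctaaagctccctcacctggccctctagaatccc
The core occurred 4 times in the Adam1b window, 1 time in that of Calr3 and 3 times in that of Pdilt, and 74.2% of all 32851 RefSeq promoters held it at least 1 time in the 250 bases before the start. The letters TGACG, the core of the cAMP response element bound by CREM, occurred in 17.8% of all promoters, and its palindrome TGACGTCA, which contains that core, in 1.55%. Neither was in these 3 windows. The windows of Adam1b, Calr3 and Pdilt held 250, 158 and 243 bases, while the shares over all promoters are for 250 bases. Counts of the 3 genes are therefore at unlike lengths.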

How the data were processed

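Total RNA of whole testes from 3 WT and 3 cKO mice was compared. The deposited values are raw read counts per gene, with no normalisation by the authors, in the layout of the gene count table of STAR. The submitters' processing notes name mm10, STAR, HTSeq and DESeq2, while versions, annotation release and filters are not given in the sources used here. Reads on the strand opposite to the gene (96.0% to 96.2% of the 2 strand columns) were used. Lines that name no gene held 14.8% to 16.7% of reads and were left out. Symbols, positions and exon lengths came from GENCODE M21 (GRCm38), which matched 52147 of 53700 identifiers.

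cKO was tested against WT with edgeR 4.0.16 in R 4.3.3 (filterByExpr at minimum count 10, TMM scaling, quasi-likelihood F test, no covariates, Benjamini-Hochberg adjustment over 21902 genes, threshold 0.05). CPM were computed from the deposited counts with TMM-scaled library sizes of libraries that held 56991431 to 73766444 assigned reads. Standard errors and 95% limits were derived from the F statistic. Alternatives were RLE scaling, library totals, 2 other filters, unstranded counts, a replicate block, robust fitting, DESeq2 1.42.0, a threshold of 0.1 and each library left out. The members and lists were chosen with earlier results of these data known. Named were the 10 members, Msl3, all 12 genes of ADAM3 maturation, Canx, Calr, P4hb, and the gene with the lowest unadjusted p of each other list.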

Additional observations from a re-analysis of the deposited data

How the results depend on the processing

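None of the 10 members was called under any of the 15 alternatives. The number of genes called over the whole table was 4 of 21902. It was 757 of 36605 with no filter on low counts and 2 of 22460 with unstranded counts. It was 49 of 21902 with the replicate block and 199 of 12135 with DESeq2. It ran from 1 to 628 when single libraries were left out, with 628 without cKO replicate 1 and 116 without WT replicate 1. The cause was not tested. Among the members, the adjusted p nearest to the threshold was 0.078, for Adam1b without cKO replicate 1. With unstranded counts the log2 fold change of Pdilt was 0.00, on the other side of 0.

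Leaving out single libraries also turned the sign of small fold changes. The log2 fold change ran from -0.05 to 0.01 for Adam3, from -0.01 to 0.07 for Adam32 and from -0.02 to 0.02 for Pdilt. It ran from -0.14 to 0.07 for Tpst2, from -0.08 to 0.06 for Tex101, from -0.14 to 0.01 for Ly6k, from -0.25 to 0.04 for Rnase10, from -0.01 to 0.11 for Calr and from -0.16 to 0.16 for Defb41. The Clgn to Canx difference ran from -0.02 to 0.05. Adam1b kept its sign, from 0.14 to 0.26, as did Adam2, from -0.22 to -0.12, and Clgn, from 0.14 to 0.23. Neighbours in the order of levels overlapped in 4 of 9 cases with union exons and in 2 with the longest transcript. Replicate numbers are not stated to pair mice, so the replicate block was an alternative only. The deviations of libraries that share a replicate number correlated at 0.387, 0.262 and -0.0836. Libraries with unlike numbers were not correlated, so these values cannot decide whether the numbers pair mice. Pairing libraries by replicate number cannot change the mean difference of a ratio, which stayed at -0.37 for Adam2 to Adam1b and 0.35 for Clgn to Adam2. These equal values are therefore no further evidence. Each had an exact sign-flip p of 0.25, the smallest that 3 pairs allow. Of the other genes named by rule, Prss55, Izumo1, Hmgb4, Hsd17b3 and Fcgr3 passed the threshold with no filter on low counts. All of these but Prss55 were named for the lowest unadjusted p of their list in these same libraries. Their passing under other settings is therefore no further evidence. Hmgb4, Hsd17b3 and Fcgr3 also passed with DESeq2. Tnp1, named after its value was seen, passed the threshold with DESeq2 too (DESeq2 adjusted p 0.0265), though its groups overlapped. Prss55, Hsd17b3 and Fcgr3 passed it without cKO replicate 1 (edgeR adjusted p 0.0302, 0.0256 and 0.0395), and Hsd17b3 without WT replicate 1 (0.0479). With single libraries left out, list medians ran from -0.14 to -0.06 for ADAM3 maturation, from 0.05 to 0.13 for widely expressed ADAMs, from -0.09 to -0.04 for spermatocyte, from -0.16 to -0.08 for round spermatid, from 0.04 to 0.15 for spermatogonial and from 0.03 to 0.19 for Sertoli markers. Each member had at least 5007 reads in every library. Counting error was 1.35% for Adam1a, above its coefficient of variation within groups of 0.329%. For each other member, counting error was below the variation within groups.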
